A study of Homo sapiens with 4 samples.

Results

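The genes described here are 58 members of a stretch of the long arm of human chromosome 1, from band 1q24 to band 1q41, in the melanoma cell line A375. They were chosen by log2 ratios to the parental level in 2 p53 knockout libraries, and most were lower in 1 of them. They make up 58 of the 26484 genes of the deposited table. The first by position is ATP1B1 and the last is RAB3GAP2, and on build hg38 they span 51.2 Mb, chr1:169105697-220272454. The level of each member was compared in every library, to see which members lay at the lower level common to the stretch in knockout library 8 and which did not.

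A375 is an established line from a human malignant melanoma. Polyadenylated RNA was sequenced from 4 libraries: 2 of parental cells, in which p53 is wild type, and 2 of A375 cells in which CRISPR-Cas9 had knocked out p53, a transcription factor and tumour suppressor. All 4 were grown in the same medium with no treatment named. The deposited columns of the knockout pair carry the numbers 2 and 8, and the libraries are called parental 1 and 2 and knockout 2 and 8. Whether the 2 libraries of each genotype are separate cultures, separate clones or neither is not given by the labels, so any p-value measures only the spread between these libraries, which may be technical. No edited cells that kept p53 were analysed, so loss of p53 cannot be told apart from the editing and selection of cells.

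The RNA level of a gene depends on how many copies of it the cell carries as well as on how each copy is transcribed and how long the RNA lasts. In tumour cell lines the number of copies often differs by whole chromosome arms or segments, and neighbouring genes with nothing in common but position can then have RNA levels that differ together. RNA levels do not always follow copy number gene by gene, because regulators acting elsewhere, feedback on a pathway and RNA decay also set them. Gain of 1q is among the common changes of human tumours. DNA copy number was not measured here.

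Values are the authors' normalized counts, which correct for sequencing depth but not for gene length, so levels are compared between libraries and not between genes. The libraries held 29230554 and 36331894 reads on genes for parental libraries 1 and 2, and 30334054 and 32160978 for knockout libraries 2 and 8. Over genes, the difference between libraries beyond read sampling was larger for the knockout pair (chi-square per degree of freedom 65.3) than for the parental pair (5.85). Of 10 melanoma and neural crest markers, 7 were measured (10 or more in 2 or more libraries), with SOX10 at 30033, 29587, 28125 and 25662 in parental 1, parental 2, knockout 2 and knockout 8; the pigment genes MLANA and TYR were at 0 in all 4 libraries. The summed melanoma markers ranged from 46250 to 47899 in the parental pair and were 44459 and 41167 in knockout libraries 2 and 8. Summed levels over all 4 libraries were 452 to 1170 for 6 fibroblast markers, of which 4 were measured, 961 to 1235 for 5 epithelial markers (2 measured, CDH1 at 0), and 85.5 to 267 for 5 blood cell markers (1 measured, LYZ; HBB at 0). The fibroblast sum was highest in knockout library 2 and the blood sum in knockout library 8, each resting mostly on a single marker. The fibroblast markers did not all move the same way, and the part of these markers in the results was not tested.

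The ratio used throughout is the log2 of a normalized count plus 1 in 1 knockout library, minus the mean of the same quantity in the parental pair. In knockout library 8 the median ratio of the 58 members was -0.26, which is 83.5% of the parental level, with quartiles at -0.37 and -0.15; over all 15431 genes with enough reads to test, the median was -0.00078. All 58 members were among those tested genes. Knockout library 8 lay below both parental libraries in 52 of 58 members, and in 40.8% of all genes tested. Because these same values chose the members, they describe the group and test nothing. The libraries are bulk RNA, in which less RNA in every cell cannot be told apart from a share of cells with much less.

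Members were sorted into 3 classes by their value in knockout library 8. A member was said to follow the shift if knockout library 8 lay below both parental libraries with a ratio of at most -0.3, to be intermediate if it lay below both with a smaller difference, and to escape if it did not lie below both. By this rule 24 members followed (41.4%), 28 were intermediate and 6 escaped; 14.3% of all genes tested, and 11.3% of genes with a mean of at least 100, would have been counted as following. The boundary between following and intermediate falls in a continuous range of ratios: STX6 (-0.30), NEK7 (-0.31) and NUCKS1 (-0.32) lay just inside, and TOR1AIP2 (-0.29), QSOX1 (-0.28) and CDC73 (-0.28) just outside. STX6, a SNARE of the trans-Golgi network, had normalized counts of 2549 in parental 1, 2575 in parental 2, 2609.9 in knockout 2 and 2076 in knockout 8. TOR1AIP2, an activator of torsin ATPases, had 6617 in parental 1, 7169.8 in parental 2, 7976 in knockout 2 and 5622 in knockout 8. Both genes were lower in knockout library 8 by much the same margin, so the class names mark a position along a range rather than separate kinds of gene.

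**Figure D1:**
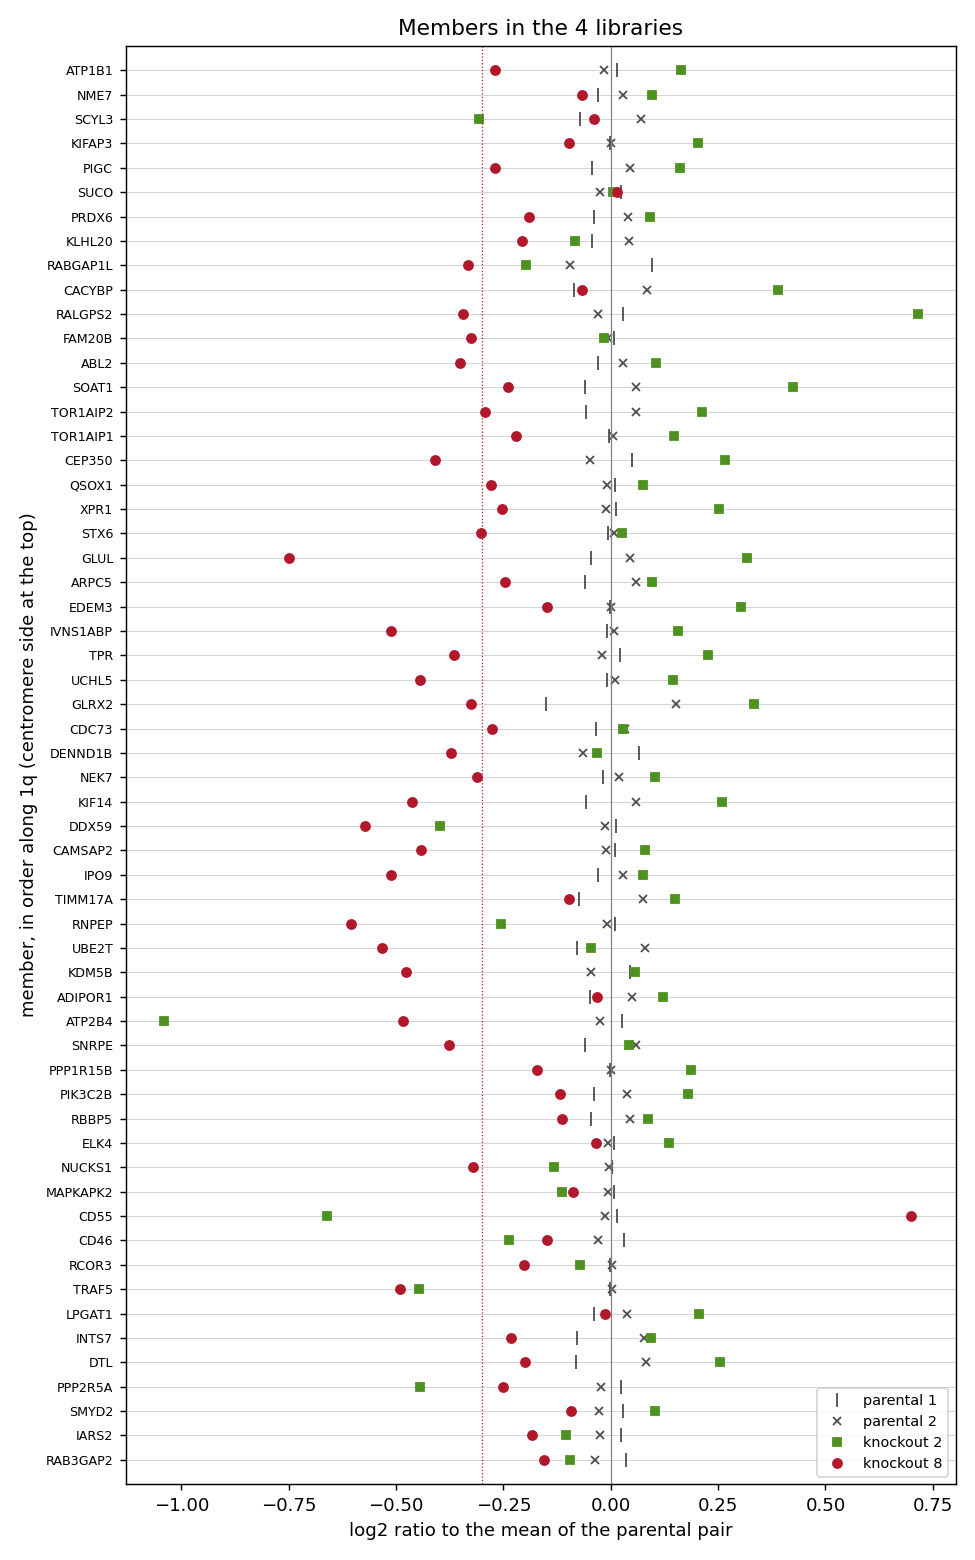
Log2 ratio of each member to the parental mean in each of the 4 libraries, with members in order along 1q from the centromere side at the top; symbols mark the library and the dotted line the ratio of -0.3. The ratios in knockout library 8 run from -0.75 (GLUL) to 0.70 (CD55), whereas the parental points lie close to 0 on either side.

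Spread between the parental libraries was small beside these ratios. The median over members of the parental standard deviation was 0.041 (log2, n = 2 libraries), the largest was 0.21, for GLRX2, and parental 2 minus parental 1 had a member median of 0.0063. Counting error was also small: the lowest read number behind any member value was 258, for PIK3C2B, and the 95% interval on a ratio from read counts alone had a median width of 0.060 to either side. That interval included 0 in 7 members. It lay wholly above the member median in 19 members, wholly below it in 19, and held it in the other 20. These intervals cover counting error only, and even the parental libraries differed beyond read sampling (chi-square per degree of freedom 5.85). The intervals are therefore too narrow to show whether the members shared 1 common ratio, which was not tested.

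The lowest member in knockout library 8 was GLUL, which encodes glutamine synthetase, the enzyme that makes glutamine from glutamate and ammonia. GLUL had normalized counts of 1602 in parental 1, 1705 in parental 2, 2058 in knockout 2 and 983 in knockout 8, a ratio of -0.75, and knockout library 2 lay on the other side of the parental pair. RNPEP, an aminopeptidase that removes basic residues from peptides, had 5453 in parental 1, 5385 in parental 2, 4540.1 in knockout 2 and 3562 in knockout 8 (ratio -0.61). Unlike GLUL, RNPEP was below both parental libraries in each knockout library. DDX59, a DEAD-box RNA helicase linked to cilia, had 1385 in parental 1, 1359.6 in parental 2, 1041 in knockout 2 and 923 in knockout 8 (ratio -0.57), and here too both knockout libraries were low.

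Ubiquitin and protein turnover held 7 members and had the lowest median of the 8 role groups, -0.44 in knockout library 8, with 4 of 7 following. UBE2T, the ubiquitin-conjugating enzyme of the Fanconi anaemia repair pathway, had 2242 in parental 1, 2503 in parental 2, 2294 in knockout 2 and 1637 in knockout 8 (ratio -0.53). IVNS1ABP, a Kelch protein that binds actin and a viral protein of influenza, had 7139 in parental 1, 7225 in parental 2, 8009.8 in knockout 2 and 5039 in knockout 8 (ratio -0.51). Knockout library 8 was the lowest of the 4 for both genes, while knockout library 2 lay between the parental libraries for UBE2T and above both for IVNS1ABP. TRAF5, an adaptor of tumour necrosis factor receptors, had 1935 in parental 1, 1941 in parental 2, 1423 in knockout 2 and 1378 in knockout 8 (ratio -0.49), so that the 2 knockout libraries were nearly alike and both below the parental pair. UCHL5, a deubiquitinase of the proteasome and of the INO80 remodeller, also followed (-0.44). KLHL20, a substrate adaptor of a cullin 3 ligase (-0.21), and DTL, the adaptor that directs the CUL4 ligase to replication-coupled substrates (-0.20), were intermediate. CACYBP, a calcyclin-binding partner of the SIAH1 ligase, escaped with 6632 in parental 1, 7458 in parental 2, 9206 in knockout 2 and 6713 in knockout 8 (ratio -0.07), its value in knockout library 8 lying between the parental ones.

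Nuclear envelope and nuclear transport held 4 members, all below both parental libraries in knockout library 8, with a median of -0.33. IPO9, an importin that carries histones and actin into the nucleus, had 9110.2 in parental 1, 9485 in parental 2, 9790.5 in knockout 2 and 6516 in knockout 8 (ratio -0.51). TPR, the large coiled-coil protein of the nuclear pore basket, had 11271 in parental 1, 10941 in parental 2, 12983 in knockout 2 and 8628 in knockout 8 (ratio -0.36). TOR1AIP1, the lamina-associated protein LAP1, was the least low of the 4, with 3757 in parental 1, 3779 in parental 2, 4172 in knockout 2 and 3234 in knockout 8 (ratio -0.22). All 4, TOR1AIP2 included, were above both parental libraries in knockout library 2, as were 42.5% of all genes tested.

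Of the 7 members of cell division, cytoskeleton and cilia, all 7 lay below both parental libraries in knockout library 8 and all 7 above both in knockout library 2 (42.5% of all genes tested); the medians were -0.31 and 0.10, and 4 of 7 followed. KIF14, a kinesin needed for cytokinesis, had 3467 in parental 1, 3757 in parental 2, 4322 in knockout 2 and 2616 in knockout 8 (ratio -0.46). CAMSAP2, which binds microtubule minus ends (-0.44), CEP350, a centrosome protein (-0.41), and NEK7, a mitotic kinase that also takes part in the NLRP3 inflammasome (-0.31), followed as well. ARPC5, a subunit of the Arp2/3 complex that nucleates branched actin, was intermediate (-0.25), and so was KIFAP3, the non-motor subunit of kinesin-2 (-0.10). The smallest difference in this group was that of NME7, a protein of the gamma-tubulin ring complex, with 1251 in parental 1, 1303 in parental 2, 1365 in knockout 2 and 1219.8 in knockout 8 (ratio -0.07).

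Chromatin, transcription and RNA held 10 members, all 10 below both parental libraries in knockout library 8, with a median of -0.25 and 4 following. KDM5B, a demethylase of histone H3 lysine 4, had 10765 in parental 1, 10112 in parental 2, 10842 in knockout 2 and 7501 in knockout 8 (ratio -0.48). SNRPE, a protein of the Sm ring of spliceosomal RNPs (-0.38), and NUCKS1, an abundant chromatin protein (-0.32), followed together with DDX59. SNRPE has 9 named pseudogenes in the annotation, so how its reads were assigned is uncertain. CDC73, the PAF1 complex subunit also called parafibromin (-0.28), INTS7, a subunit of Integrator (-0.23), RCOR3, a CoREST corepressor (-0.20), RBBP5, a core subunit of the MLL and SET1 methyltransferases (-0.11), and SMYD2, a lysine methyltransferase (-0.09), were intermediate. ELK4, an ETS factor that binds with serum response factor, was the closest to the parental level, with 3845 in parental 1, 3808 in parental 2, 4202 in knockout 2 and 3738 in knockout 8 (ratio -0.03), and the counting interval on its ratio included 0.

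Secretory pathway and membrane traffic held 10 members with a median of -0.27, of which 4 followed and 2 escaped. DENND1B, an exchange factor for RAB35, had 718 in parental 1, 656 in parental 2, 671 in knockout 2 and 530.3 in knockout 8 (ratio -0.37). RABGAP1L, a GTPase-activating protein for Rab proteins (-0.33), FAM20B, a xylose kinase of proteoglycan synthesis (-0.33), and STX6 followed too. QSOX1, a sulfhydryl oxidase that forms disulfide bonds (-0.28), PIGC, a subunit of the first enzyme of GPI anchor synthesis (-0.27), RAB3GAP2, the non-catalytic subunit of a Rab3 regulator (-0.16), and EDEM3, a mannosidase of endoplasmic reticulum quality control (-0.15), were intermediate. SUCO, a membrane protein of the rough endoplasmic reticulum, escaped with 3928 in parental 1, 3795 in parental 2, 3876 in knockout 2 and 3902 in knockout 8 (ratio 0.02). All 4 libraries of SUCO lay within a narrow range. SCYL3, a pseudokinase found at the Golgi and in lamellipodia, escaped with 736 in parental 1, 812 in parental 2, 625 in knockout 2 and 752 in knockout 8 (ratio -0.04), and its lowest library was knockout library 2.

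Metabolism, redox and mitochondria held 8 members with a median of -0.21 and 3 following: GLUL, RNPEP and GLRX2, a mitochondrial and nuclear glutaredoxin (-0.33) whose parental libraries also differed most of all members. SOAT1, which esterifies cholesterol (-0.24), PRDX6, a peroxiredoxin with phospholipase activity (-0.19), IARS2, the mitochondrial isoleucyl-tRNA synthetase (-0.18), and TIMM17A, a component of the TIM23 import channel (-0.10), were intermediate. LPGAT1, an acyltransferase of lysophospholipids, escaped with 3603 in parental 1, 3797 in parental 2, 4267 in knockout 2 and 3665 in knockout 8 (ratio -0.01), between the parental values. GLUL has 4 named pseudogenes and IARS2 has 1.

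Among 6 signalling members, with a median of -0.21, 2 followed. ABL2, a tyrosine kinase that acts on the actin cytoskeleton, had 3249 in parental 1, 3381 in parental 2, 3567 in knockout 2 and 2598 in knockout 8 (ratio -0.35). RALGPS2, an exchange factor for the small GTPase RalA, had 2205 in parental 1, 2117 in parental 2, 3547 in knockout 2 and 1700.4 in knockout 8 (ratio -0.35). The 2 genes were equally low in knockout library 8 but far apart in knockout library 2. PPP2R5A, a regulatory subunit of the phosphatase PP2A (-0.25), PPP1R15B, the constitutive partner of the phosphatase that acts on eIF2alpha (-0.17), and PIK3C2B, a class II phosphoinositide 3-kinase (-0.12), were intermediate. MAPKAPK2, the kinase downstream of p38, was the least low of the group with 4593 in parental 1, 4548 in parental 2, 4222 in knockout 2 and 4297 in knockout 8 (ratio -0.09); both knockout libraries lay below both parental ones.

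The 6 plasma membrane proteins were the most varied group, with 1 member following, 2 escaping and a median of -0.20. ATP2B4, a calcium pump of the plasma membrane, had 13114 in parental 1, 12656 in parental 2, 6259 in knockout 2 and 9217 in knockout 8 (ratio -0.48), and was lower still in knockout library 2 than in knockout library 8. ATP1B1, the beta subunit of the sodium pump (-0.27), XPR1, a phosphate exporter (-0.25), and CD46, a complement regulator (-0.15), were intermediate. ADIPOR1, a receptor for adiponectin, escaped with 6114 in parental 1, 6543 in parental 2, 6878 in knockout 2 and 6189 in knockout 8 (ratio -0.03), between the parental values. CD55, the GPI-anchored decay-accelerating factor that protects cells from complement, had 4979 in parental 1, 4887 in parental 2, 3120.4 in knockout 2 and 8004 in knockout 8. Its ratio of 0.70, 162% of the parental level, made it the only one of the 58 members above both parental libraries in knockout library 8, while in knockout library 2 it was below both.

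**Figure D2:**
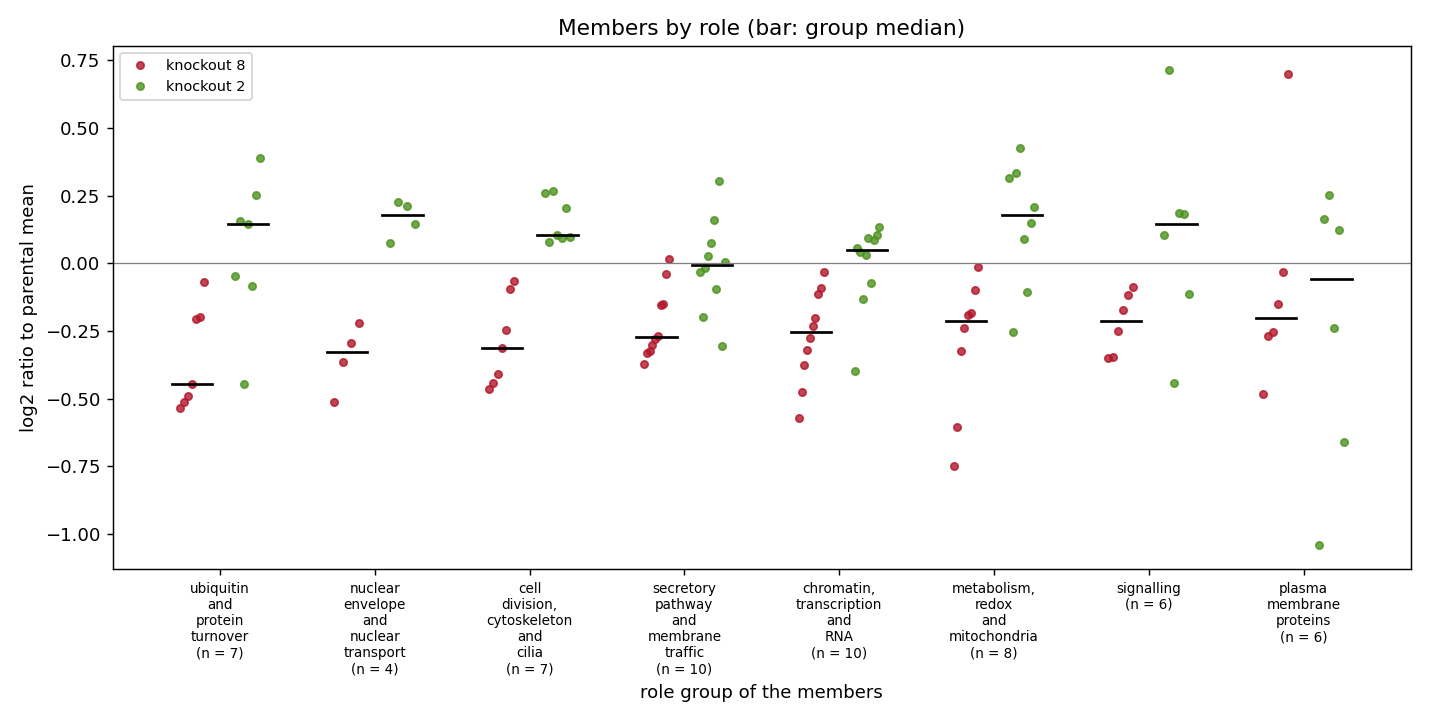
Log2 ratio to the parental mean of every member in knockout libraries 8 (red) and 2 (green), by role group; black bars are group medians. Medians in knockout library 8 run from -0.44 (ubiquitin and protein turnover) to -0.20 (plasma membrane proteins), and those in knockout library 2 from -0.06 to 0.18.

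Of the 6 members that escaped, 5 had a value in knockout library 8 between the 2 parental values: SCYL3, SUCO, CACYBP, ADIPOR1 and LPGAT1. CD55 was the exception. For those 5 the class depends on the lower parental library. Over all members, CD55 included, the number not below parental library 2 alone was 2, against 5 with parental library 1 alone. SUCO lay below parental library 1, whereas SCYL3, CACYBP, ADIPOR1 and LPGAT1 lay below parental library 2. SCYL3 lies between 160 and 170 Mb, where the 64 genes with a mean of at least 100 had a median ratio of -0.02 in knockout library 8. At -0.04, SCYL3 was thus near the level of the genes around it.

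In knockout library 2 the same 58 members were not low as a group. Their median ratio was 0.09, with quartiles at -0.07 and 0.19; over all genes tested it was -0.0012. Knockout library 2 was above both parental libraries in 37 members (63.8%), against 42.5% of all genes tested, below both in 16 (27.6%), against 43.5%, and between them in 5. Of the 123 other genes between the first and last member with a mean of at least 100, 47.2% were above both and 42.3% below both. Knockout library 8 was below knockout library 2 in 51 of 58 members, against 7645 of 15431 genes tested and 100 of those 123 other genes. The same held in 23 of the 24 members that followed. Low values in knockout library 8 define that class, so this last count was largely fixed by the choice. Ratios in the 2 knockout libraries share the parental libraries, so they are given side by side.

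A limma fit of knockout library 2 against the parental pair, in which the lone knockout library is assumed to vary as the parental libraries do, called 13 members higher (22.4%) and 8 lower (13.8%) at a Benjamini-Hochberg adjusted p of 0.05 over all genes, against 15.7% and 16.9% of all genes tested. The first share is above and the second below that of all genes, and neither difference was tested. The rule for the members took in ratios in both knockout libraries, so these calls describe the values and test nothing about the group. Beyond read sampling, the knockout pair differed more than the parental pair (chi-square per degree of freedom 65.3 against 5.85). The spread assumed for knockout library 2 may therefore be too small, which was not tested. RALGPS2 showed the largest difference upward (ratio 0.71), followed by SOAT1 (0.42) and CACYBP (0.39). SOAT1 had 3501 in parental 1, 3799 in parental 2, 4896 in knockout 2 and 3090.2 in knockout 8, and was thus on opposite sides of the parental pair in the 2 knockout libraries. GLUL (0.32) and EDEM3 (0.30) were also called higher, as were CEP350, KIF14, DTL, XPR1, TPR, TOR1AIP2, LPGAT1 and KIFAP3, with ratios from 0.20 to 0.27. Each of these 13 was above both parental libraries in the 1 knockout library 2.

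ATP2B4 showed the largest difference downward in knockout library 2, with a ratio of -1.04, followed by CD55 (-0.66), TRAF5 (-0.45), PPP2R5A (-0.44) and DDX59 (-0.40). PPP2R5A had 1664 in parental 1, 1612 in parental 2, 1204 in knockout 2 and 1376 in knockout 8, low in both knockout libraries. SCYL3 (-0.31), RNPEP (-0.26) and CD46 (-0.24) were called lower as well. The 8 genes called lower here include 4 that followed in knockout library 8 (ATP2B4, TRAF5, DDX59 and RNPEP), 2 that were intermediate (PPP2R5A and CD46) and 2 that escaped (CD55 and SCYL3). With no filter on low values limma called 0 of the 58 members (10 higher and 7 lower at an unadjusted p of 0.05), against 2.42% of all genes called higher and 0.196% lower. edgeR's quasi-likelihood test on the recovered reads called 15 members higher and 8 lower, against 17.7% and 18% of all genes.

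With the 2 knockout libraries taken as 1 group against the parental pair, limma called 0 genes of 15431 (0%), with 903 higher and 950 lower at an unadjusted p of 0.05 and a smallest adjusted p of 0.121. It called 0 members, 5 of which were lower at an unadjusted p of 0.05. edgeR also called 0 genes (946 higher and 921 lower unadjusted). DESeq2 on the recovered reads called 198 genes higher (1.21% of 16330) and 200 lower (1.22%), among them 0 members higher and 2 lower, ATP2B4 (adjusted p = 0.0266) and TRAF5 (adjusted p = 0.0280). Since ratios in the knockout libraries chose the members, nothing is read from these calls.

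Position along chromosome 1 was then compared, with every gene of the table that has a mean normalized count of at least 100. The other 123 such genes between the first and the last member had a median ratio of -0.26 in knockout library 8 and 0.02 in knockout library 2, and 51 of them (41.5%) would have been counted as following. Members and the other genes of the interval were thus lower to much the same degree. The 663 genes of chromosome 1 before the centromeric gap had a median of 0.0059 in knockout library 8. Genes of 1q before the first member (229 genes) had a median of -0.18, those after the last (117 genes) -0.21, and all 527 genes of 1q, members included, -0.23. In knockout library 2 the median over 1q was 0.04. The medians of the other 22 chromosomes ran from -0.04 to 0.11 in knockout library 8.

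The lower level was not even along the arm. In bins of 10 Mb the median in knockout library 8 was -0.02 between 160 and 170 Mb (64 genes), where ATP1B1, NME7, SCYL3 and KIFAP3 lie with a median of -0.08 and 0 of 4 following. It was -0.23 between 170 and 180 Mb (28 genes; 5 of 13 members following), -0.30 between 180 and 190 Mb (29 genes; 4 of 8), -0.28 between 200 and 210 Mb (68 genes; 10 of 19) and -0.20 between 210 and 220 Mb (32 genes; 1 of 7, TRAF5). The bin between 190 and 200 Mb had a median of -0.32 over only 12 genes, with 4 of 5 members following. Nearer to the centromere than the members, the median was -0.32 between 140 and 150 Mb (37 genes) and -0.23 between 150 and 160 Mb (137 genes). Towards the end of the arm it was -0.16 between 220 and 230 Mb (54 genes, with IARS2 and RAB3GAP2 at its start), -0.15 between 230 and 240 Mb (36 genes) and -0.60 beyond 240 Mb (30 genes).

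**Figure D3:**
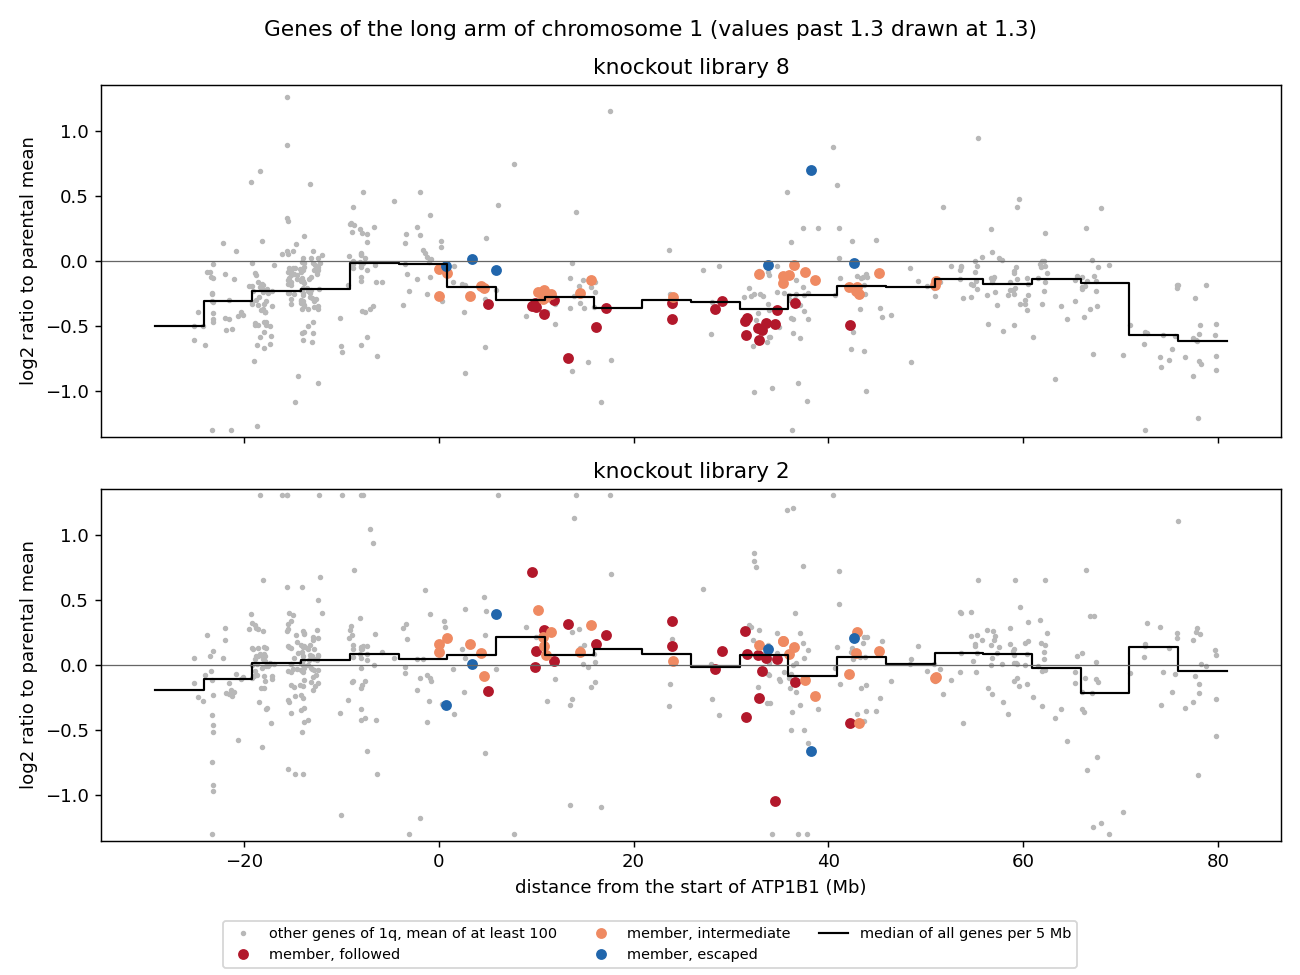
Log2 ratio to the parental mean of genes along 1q in knockout library 8 (top) and knockout library 2 (bottom), against distance in Mb from the start of ATP1B1; members are coloured by class, grey points are other genes with a mean of at least 100, and the black line is the median of all genes per 5 Mb. In knockout library 8 the line lies below 0 across most of the arm and near 0 just before ATP1B1, while in knockout library 2 it lies on both sides of 0, between -0.21 and 0.21.

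In bins of 5 Mb, chosen after the data were seen, members between 200 and 205 Mb were the lowest, with a median of -0.46 and 9 of 13 following (KIF14, DDX59, CAMSAP2, IPO9, RNPEP, UBE2T, KDM5B, ATP2B4 and SNRPE). The 25 other genes there had a median of -0.28. Between 205 and 210 Mb the 6 members had a median of -0.10 and the 24 other genes -0.28. Those 6 are RBBP5, ELK4, NUCKS1, MAPKAPK2, CD55 and CD46, and they did not lie together: NUCKS1 (-0.32) was below the median of the other genes, and CD55 (0.70) was above the parental level.

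Adjacent members could still differ. Of the 57 pairs of neighbouring members the median absolute difference in ratio was 0.12, and of the 10 pairs within 20000 bases of each other it was 0.090, from 0.027 to 0.51. Over all 57 pairs the largest differences were those of CD55 with its neighbours, a step of 0.79 from MAPKAPK2 to CD55 and of -0.85 from CD55 to CD46. Of the 10 close pairs, TIMM17A and RNPEP differed most, and their gene models lie 11710 bases apart on the same strand. TIMM17A had 2815 in parental 1, 3118 in parental 2, 3288 in knockout 2 and 2769 in knockout 8 (ratio -0.10), while RNPEP, given above, was at -0.61. The close pair alike to 0.027 was IARS2 and RAB3GAP2 at the end of the stretch, which lie 251 bases apart on opposite strands. In all, 34 members overlap an annotated gene on the opposite strand and 9 have named pseudogenes. The strand setting of the authors' counting is not given in the sources used here. Whether reads of overlapping genes were kept apart is therefore not known.

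Across the 58 members the ratio in knockout library 8 was unrelated to the level of the gene (Spearman's rho -0.06 over 58 genes of the same libraries, a description).

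Other genes of the interval with a mean of at least 100 covered a wider range in knockout library 8 than the members, from -1.99 to 1.15. This set is larger (123 genes against 58), reaches lower counts and, unlike the members, was not chosen by its ratios, so the ranges are not alike in kind. The 5 lowest in knockout library 8 were LEMD1 (-1.99), HMCN1 (-1.09), IL24 (-1.07), PHLDA3 (-1.01) and VASH2, the last with 193 and 162 in the parental pair, 138 in knockout 2 and 87.9 in knockout 8. PHLDA3, a known p53 target that restrains AKT, had 3463 and 3296 in the parental pair, 6137 in knockout 2 and 1678 in knockout 8. HMCN1, an extracellular matrix protein, had 26672 and 20584 against 11014 and 11043. IL24, a cytokine, had 6183 and 7465 against 219 and 3225. The 5 highest were PTGS2 (1.15), LAMB3 (0.88), ASTN1 (0.74), SYT14 (0.58) and NFASC (0.53). PTGS2, the inducible cyclooxygenase, had 667 and 475 in the parental pair, 6179.7 in knockout 2 and 1248 in knockout 8. The parental libraries themselves differed in some of these genes. In log2, parental 2 minus parental 1 was -0.53 for ASTN1 and -0.49 for PTGS2, but -0.07 for PHLDA3 and -0.05 for NFASC.

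Several members encode proteins that act in complexes or with partners whose genes lie elsewhere in the genome. In all, 76 partners of 18 members were compared, and 74 of them lie outside chromosome 1. Not all partners are subunits of the same complex as their member: those of UBE2T include targets of its pathway, and that of CD55 is a related regulator. The partners had a median ratio of 0.0038 in knockout library 8. Of the 76, 30 (39.5%) lay below both parental libraries, against 40.8% of all genes tested. Another 30 lay above both, as did 6209 of 15431 genes tested. As following, 2 (2.63%) were counted, against 14.3% of all genes tested and 11.3% of genes with a mean of at least 100. The 18 members had a median of -0.23. In 17 of 18 cases the member was below the median of its partners, and in 13 it was below every one of them. Members were chosen by low values in this same library and partners were not, so these counts were largely fixed by the choice and describe the values only. UCHL5 (-0.44) stood against a median of 0.15 over 4 proteasome and INO80 partners, and SNRPE (-0.38) against -0.02 over 6 Sm proteins. TPR (-0.36) stood against -0.03 over 4 other proteins of the nuclear pore, not all of them in the basket. CDC73 (-0.28) stood against 0.03 over 5 subunits of the PAF1 complex, all of them nearer to the parental level. Members that were not below every partner were RBBP5, INTS7, RCOR3, TIMM17A and CD55. CD55 was the 1 case above the median of its partners: at 0.70 it stood against 0.19 for the single partner listed, another GPI-anchored regulator of complement.

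Among the 76 partners, 5 lay beyond 0.3 in either direction in knockout library 8, a number that was not compared with all genes. INTS9, of Integrator, had 1366 and 1282 in the parental pair, 1165 in knockout 2 and 969.8 in knockout 8 (ratio -0.45), lower than its partner INTS7. FANCB, of the Fanconi core, had 532 and 560 against 604 and 440.5 (ratio -0.31). PIGH, which acts with PIGC, was at 0.36. PSMD1, of the proteasome, was at 0.49, and ARPC2, of the Arp2/3 complex, at 0.57; both lie on chromosome 2, whose median of 0.11 was the highest of the other chromosomes in knockout library 8.

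**Figure D4:**
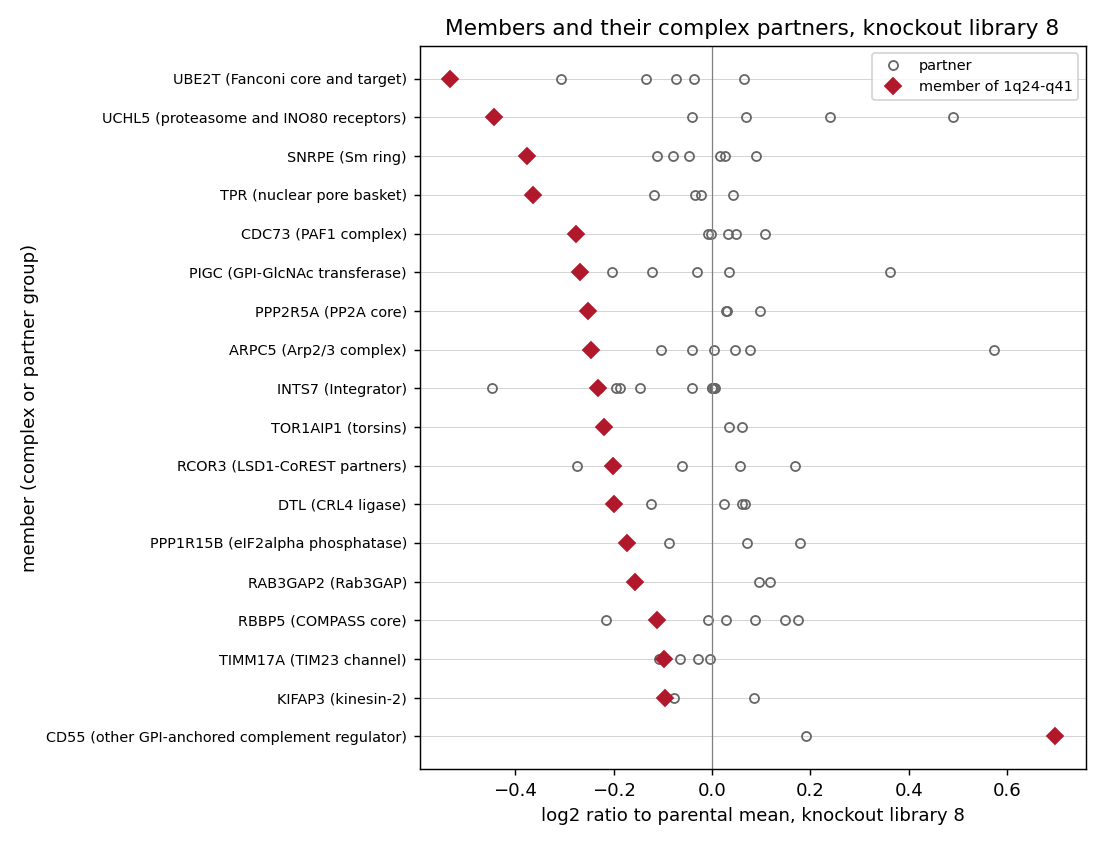
Log2 ratio to the parental mean in knockout library 8 of 18 members (diamonds) and of the partners of each (circles), 76 in all. Diamonds lie below the median of their partners in 17 of 18 cases, CD55 being the exception; the members, unlike the partners, were chosen by these ratios.

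Sequence upstream of the members was examined in RefSeq (build GRCh38.p14), in the 250 bases before each gene's start, for 53 of the 58 members and 27305 genes in all. The GC box GGGCGG, searched on both strands, occurred in 36 members (67.9%) and in 42.3% of all windows; it was present in 17 of 22 members that followed, 16 of 25 intermediate ones and 3 of 6 that escaped. Median GC content was 64% in the members and 58% over all windows. TATAAA, also on both strands, occurred in 0 members, against 11.1% of all windows. A decamer matching the p53 consensus occurred in 1 member (1.89%), RAB3GAP2, against 5.53% of all windows. The 27305 windows were not limited to genes with enough reads to test, whereas every member had enough. Members were not compared with expressed genes alone, so these differences cannot be assigned to the stretch. These matches describe the letters of the windows and do not mark binding sites. INTS7 and DTL, transcribed in opposite directions, share 190 bases of their windows.

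Windows free of any exon of GENCODE release 29 were found for 10 members, and those of 3 of them, chosen after their values were seen, show the range from a gene that followed to 1 that escaped. Capitals mark GGGCGG on either strand. KIF14 is the lowest of the 10 (chr1:200620752-200621001, minus strand), TOR1AIP2 lies just outside the boundary for following (chr1:179877804-179878053, minus strand), and SUCO escaped (chr1:172532099-172532348, plus strand); each is written 5′ to 3′ on the strand of its gene.
KIF14: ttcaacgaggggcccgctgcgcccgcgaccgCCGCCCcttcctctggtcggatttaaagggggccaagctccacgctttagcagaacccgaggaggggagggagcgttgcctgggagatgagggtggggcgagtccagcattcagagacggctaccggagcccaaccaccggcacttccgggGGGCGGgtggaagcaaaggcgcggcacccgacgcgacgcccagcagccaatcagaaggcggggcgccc
TOR1AIP2: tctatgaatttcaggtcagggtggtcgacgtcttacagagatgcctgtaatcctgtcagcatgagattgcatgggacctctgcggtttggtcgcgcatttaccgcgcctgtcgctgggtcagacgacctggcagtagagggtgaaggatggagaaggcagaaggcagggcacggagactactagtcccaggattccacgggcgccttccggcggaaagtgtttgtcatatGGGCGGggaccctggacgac
SUCO: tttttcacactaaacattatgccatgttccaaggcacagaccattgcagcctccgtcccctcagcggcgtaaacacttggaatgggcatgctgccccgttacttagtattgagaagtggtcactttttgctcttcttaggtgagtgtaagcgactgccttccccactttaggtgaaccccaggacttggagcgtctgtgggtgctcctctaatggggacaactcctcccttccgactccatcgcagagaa
KIF14 had 2 matches, TOR1AIP2 had 1 and SUCO had 0, and GC content was 69.2%, 57.6% and 51.6%. Among members that followed, TRAF5, ABL2 and STX6 had 0 matches, and among those that escaped ADIPOR1 had 3; genes with and without the box occurred in all 3 classes.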

How the data were processed

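RNA of 2 parental and 2 p53 knockout A375 libraries was sequenced after poly(A) enrichment with a strand-specific NEBNext Ultra II kit, per the labels' protocols. The tools named are STAR, HTSeq, Picard, deepTools and DESeq2, and the build is hg38, per the submitters' processing notes; tool versions, the annotation, the strand setting and the handling of multiply aligned reads were not given in the sources used here. The deposited values are a signal unit: gene counts divided by a size factor per library. This was tested on the values, and 100% of them were whole reads, within 0.001, once multiplied by the factors found (0.912, 1.14, 0.950 and 1.02). No values were raw counts, so limma was the main test and count tests on the recovered reads were alternatives.

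Groups were taken from the labels. The knockout columns name no replicate of the labels and were mapped to their group only. The ratio is log2(value + 1) minus the parental mean, which understates differences of low genes. Genes with a value of at least 10 in at least 2 libraries were tested with limma 3.58.1 with a trend (R 4.3.3). Benjamini-Hochberg adjustment was over all 15431, and edgeR 4.0.16 and DESeq2 1.42.0 were alternatives. The tests were also run on simulated data in which all 4 libraries varied alike. Here the knockout pair differed more than the parental pair, so the simulation does not cover the spread of the knockout libraries. Positions are from GENCODE release 29 (GRCh38, the same assembly as hg38), promoters from RefSeq on GRCh38.p14, and 1 partner was found by an older symbol.

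The members, their role groups, the partners and the rules were chosen with earlier results of these data known. Values in every library were given for the 10 lowest and 5 highest members in knockout library 8, members that escaped, the member on each side of the boundary, the extremes of each role group and the 5 largest differences in knockout library 2. Named with them were the 5 lowest and 5 highest other genes of the interval, and partners past 0.3. The values of the targeted gene, which the rule also names, and of 1 listed marker are not reported here, so the genotype is given as labelled.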

Additional observations from a re-analysis of the deposited data

How the results depend on the processing

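Of 50 values recomputed under an alternative, over 8 results, 42 kept their side, 8 moved and 0 reversed direction. The member median in knockout library 8 ran from -0.29 without parental library 1 to -0.23 without parental library 2, and from -0.27 to -0.25 over the other scalings, pseudocounts and the higher filter. The number of members that followed was 21 to 28 when 1 parental library was left out, 37 at a ratio of at most -0.2 and 13 at -0.4; the number that escaped was 2 to 5 with 1 parental library left out, 5 with the higher filter and 6 under each other scaling and pseudocount. Genes called for the knockout pair numbered 0 with limma, 398 with DESeq2 and 102 with limma without a filter. Leaving out 1 library gave 0 to 5023: 2896 without knockout library 2 and 5023 without knockout library 8, so each count then rests on 1 knockout library assumed to vary like the parental pair. Members called in knockout library 2 fell from 21 to 0 without the filter. The cause was not tested. No paired analysis was possible because the knockout columns carry the numbers 2 and 8, not the replicate numbers of the labels. With 2 libraries a group, 1 library decides each member's class, and no library repeats knockout library 8.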
